A study of Mus musculus with 7 samples.

Results

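The genes that write, erase and read histone acetylation were followed in mouse precision-cut liver slices (PCLS) cultured with or without valproic acid (VPA), a small molecule that inhibits histone deacetylases (HDACs). The 49 members were chosen by name as the HDACs, the sirtuins, the subunits of the NuRD, SIN3, CoREST and NCoR corepressor complexes, the histone acetyltransferases and a pair of BET readers, and all 49 were found among the 55487 genes of the count table. The libraries were 3 from slices in regular WME medium (CTR) and 4 from slices in the same medium with 2.5 mM VPA (VPA), all collected on day 3 of culture. Both groups came from healthy male BALB/c mice aged 12 to 30 weeks, with no transgene or deletion in either, and the discs were 250 µm thick and 3 mm wide, with the medium refreshed every 24 h in both groups. According to the methods, VPA was already in the medium in which the treated tissue was sliced. The comparison asks how the RNA of the drug's targets and of their partners stood after 3 days with the drug.

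Acetyl groups on the lysines of histone tails loosen chromatin and are read by bromodomain proteins. Acetyltransferases place them, with CREBBP and EP300 as broad coactivators, and HDACs remove them, mostly as the catalytic part of a corepressor complex. The class I enzymes HDAC1 and HDAC2 work in NuRD, SIN3 and CoREST, HDAC3 works with NCoR, class IIa enzymes shuttle between the cytoplasm and the nucleus, and sirtuins use NAD in place of zinc. VPA inhibits the class I enzymes and, more weakly, class IIa, and is not known as an inhibitor of the class IIb enzymes or the sirtuins. An enzyme can be inhibited without any change in its mRNA, and only mRNA was measured here.

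The libraries were read from the 3′ end of polyadenylated RNA, so a count does not grow with the length of a gene and levels can be set side by side between genes in CPM (each count as a share of its library, after TMM scaling between libraries). They held 1400887 to 4773750 counts on genes. For a gene at 0 the upper limit was set at 3 counts, or 0.591 to 2.41 CPM, and it covers counting error only. The limit holds only if the values are plain read counts, and the sources used here do not say whether they were counted directly or estimated by StringTie. The labels do not say whether each library came from its own animal, although the methods count 1 liver as 1 biological repeat, so the p-values measure the spread between these libraries. The slices carried hepatocyte RNA, with Alb at 785 to 5070 CPM, while Ass1 among the hepatocyte markers and Adgre1 and Marco among the macrophage markers had no count in any library. In bulk slices, fewer cells of a type and less RNA per cell cannot be told apart.

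No member passed the adjusted threshold, and the smallest p-values belonged to the acetyltransferase Crebbp, the corepressor scaffold Ncor1 and the remodeller Chd3, each of them lower in every VPA library. Of the 49 members, 42 had counts enough to be tested, and 0 of these had an adjusted p under 0.05 in edgeR's quasi-likelihood test with Benjamini-Hochberg adjustment over all 10876 genes tested, where the share called was 0.00919%. At an unadjusted p under 0.05, 1 member was higher with VPA (Sirt2, 2.38% of those tested against 3.65% of all genes) and 3 were lower (Crebbp, Ncor1 and Chd3, 7.14% against 4.62% of all genes). The library names carry a number from 71 to 74 whose meaning is not given, and with it as a block 0 members were higher (3.31% of all genes in that fit) and 5 were lower (11.9% of the members against 4.67% of all genes). VPA replicate 1 alone carried the number 73, so it did not bear on the fold changes of that fit. The tested members counted 14 higher and 28 lower, with a median log2 fold change of −0.17, beside 4982 higher and 5894 lower with a median of −0.057 for all genes. Without CTR replicate 1 these medians were −0.11 for the members and −0.059 for all genes, and with the genes that had at least 10 counts in every library they were −0.069 and 0.016. In 1 member every VPA library lay above every CTR library (Sirt2, 2.38% of the members tested against 4.44% of all genes), and in 5 every VPA library lay below (Crebbp, Ncor1, Chd3, Hdac7 and Mbd3, 11.9% against 7.41%). DESeq2, run in place of edgeR, called 2 of the 47 members it adjusted, Crebbp and Ncor1, against 1.01% of all genes it adjusted. With limma-voom 0 members were called, and 1 gene of all 10876. With that filter of 10 counts, which drops genes low in a single library, edgeR called 0 of the 31 members left, against 0.541% of the genes.

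**Figure D1:**
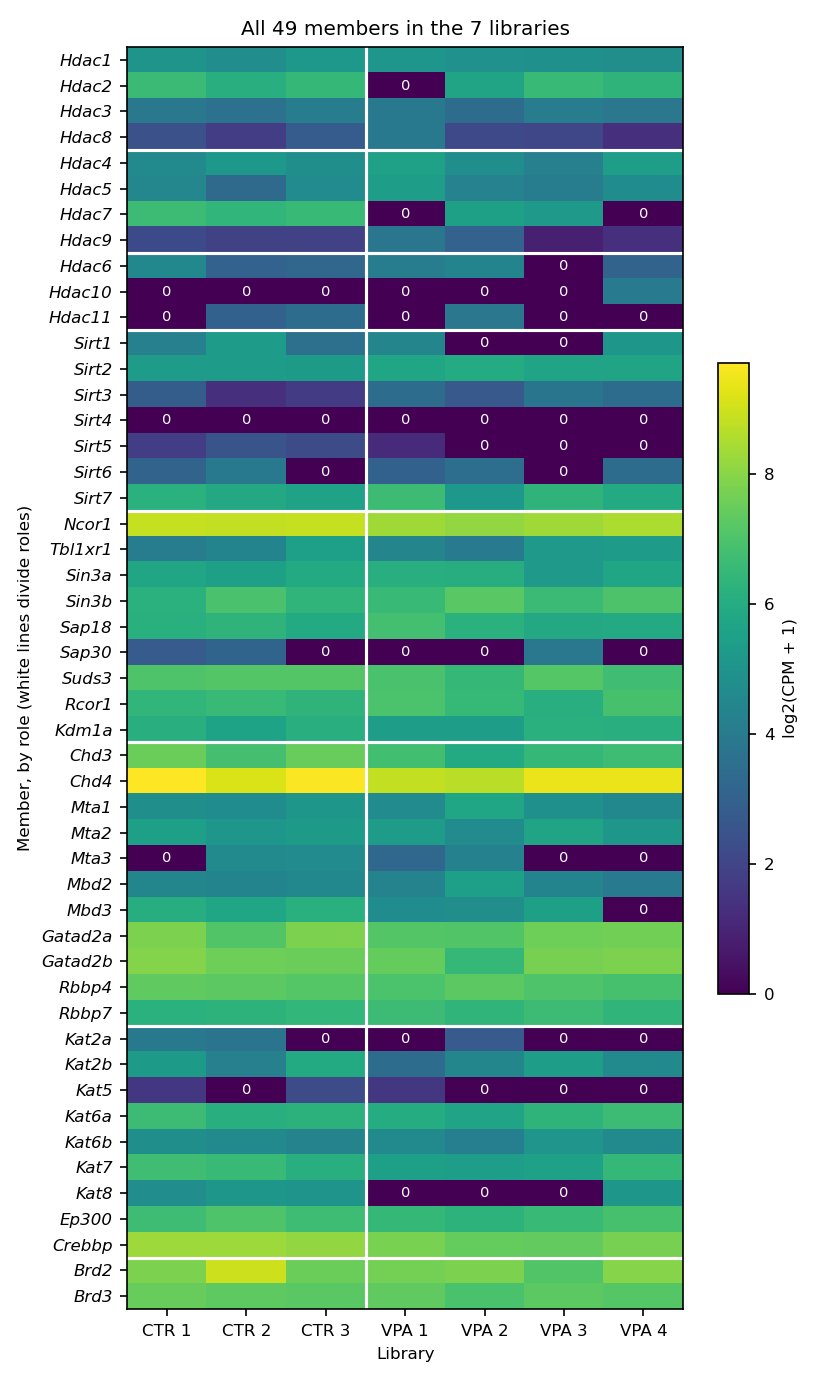
Level of all 49 members in the 7 libraries, as log2(CPM + 1), with the members ordered by role and a printed 0 where a library had no count. Chd4 and Ncor1 are the brightest rows, followed by Crebbp and Brd2 at a similar level, and the zeros stand in VPA libraries more often than in CTR libraries.

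The members were mostly well expressed. The 42 tested had mean levels between the 0.993 and the 98.8 percentile of the genes tested, with a median at the 71.4 percentile, and 30 of them lay above the median gene. The summed level of all 49 members was 4432, 4165 and 4195 CPM in CTR replicates 1 to 3 and 3293, 2980, 3481 and 3778 CPM in VPA replicates 1 to 4. Every VPA library had a lower sum than every CTR library. Chd4 and Ncor1 had the highest CTR means in it, followed by Crebbp and Brd2 at 302 CPM each. By role, the sums of the class IIa HDACs, of the NCoR, SIN3 and CoREST subunits and of the acetyltransferases did not overlap between the groups, while those of the class I and of the class IIb and IV HDACs, the sirtuins, the NuRD subunits and the BET readers did. Each of the 3 sums without overlap came to overlap once the member with the highest mean level of its role was left out. The class IIa sums without Hdac7 were 47.5 to 55.4 CPM in CTR against 34.5 to 99.9 CPM in VPA. The NCoR, SIN3 and CoREST sums without Ncor1 were 502 to 551 CPM against 519 to 580 CPM. The acetyltransferase sums without Crebbp were 361 to 417 CPM against 231, 215, 295 and 387 CPM in VPA replicates 1 to 4. Only VPA replicate 4 reached the CTR range there.

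Of the 9 acetyltransferases, 8 were tested, 1 of them higher and 7 lower, and their median log2 fold change was −0.66. Crebbp (ENSMUSG00000022521, chromosome 16, 4081328 to 4213997, − strand of GRCm38) encodes CBP, which acetylates histones at enhancers and promoters. It had 310, 316 and 280 CPM in CTR replicates 1 to 3 and 217, 171, 166 and 209 CPM in VPA replicates 1 to 4. The highest VPA library lay well under the lowest CTR library. The means were 302 ± 19.3 CPM (SD, n = 3) and 191 ± 26.0 CPM (SD, n = 4), a log2 fold change of −0.66 (standard error 0.149) that was not past the threshold with edgeR (adjusted p = 0.295) and was past it with DESeq2 (adjusted p = 0.0292). Across every setting and every library left out, its log2 fold change lay between −0.76 and −0.61. The exact permutation test gave p = 0.0286 (two-sided), the smallest p that 3 libraries against 4 can give. It was not adjusted, and members were named partly for a lack of overlap, which can put this p at its floor. It is thus no separate support here or for Ncor1, Chd3 and Sirt2.

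Ep300 encodes p300, the close relative of CBP. It had 103, 132 and 104 CPM in CTR and 88.1, 77.2, 95.5 and 119 CPM in VPA, in the same order of replicates. Here the groups overlapped, since VPA replicate 4 lay within the CTR range, and the log2 fold change was −0.26 (95% interval −0.71 to 0.19, edgeR adjusted p = 0.849). With a library left out it lay between −0.39, without VPA replicate 4, and −0.14, without CTR replicate 2. The ratio of Ep300 to Crebbp counts within a library, which no scaling between libraries touches, was 0.334, 0.418 and 0.372 in the CTR libraries and 0.408, 0.453, 0.576 and 0.568 in the VPA libraries. Only VPA replicate 1 lay inside the CTR range of that ratio.

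Kat7 encodes HBO1, an acetyltransferase that works with BRPF and JADE scaffolds. It had 106, 93.0 and 67.4 CPM in CTR and 43.7, 43.0, 45.8 and 88.4 CPM in VPA. VPA replicates 1 to 3 thus lay under the CTR range and replicate 4 inside it. The log2 fold change was −0.69 (standard error 0.313, edgeR adjusted p = 0.626). Kat8 encodes MOF, the enzyme of the MSL and NSL complexes. Its CPM was 26.0, 34.7 and 31.2 in the CTR libraries and 34.0 in VPA replicate 4, while VPA replicates 1, 2 and 3 had no count. The groups overlapped through that one library, and the fitted log2 fold change of −1.88 had an interval of −5.86 to 2.09 (edgeR adjusted p = 0.898). It was −5.28 with limma-voom (limma-voom adjusted p = 0.25) and −4.33 with the number in the library name as a block. Without VPA replicate 4 all VPA libraries left are at 0, so that no fold can be given, and the edgeR adjusted p was 0.106, the lowest of the members in that fit.

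Of the GCN5 and PCAF pair, the catalytic subunits of SAGA-type complexes, Kat2b had 9.79 to 42.6 CPM in VPA against 17.9 to 60.3 CPM in CTR, and Kat2a had no count in 4 libraries, 1 of them CTR. The MYST enzymes Kat6a and Kat6b had log2 fold changes of −0.16 and 0.058 with overlapping groups. Kat5, which encodes TIP60, had at most 7 counts in any library and was not tested.

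The corepressor scaffolds and demethylase of NCoR, SIN3 and CoREST counted 5 higher and 3 lower among the 8 tested of 9, with a median of 0.092. Ncor1 (ENSMUSG00000018501, chromosome 11, 62316426 to 62458541, − strand) encodes the scaffold that holds HDAC3 on nuclear receptors without ligand. It had 461, 451 and 465 CPM in CTR replicates 1 to 3 and 319, 285, 323 and 367 CPM in VPA replicates 1 to 4. The CTR libraries had a coefficient of variation of 1.57%, and all VPA libraries lay below them. At 1171, 2290 and 849 counts in CTR replicates 1 to 3, counting error alone is larger than that variation. The log2 fold change was −0.51 (standard error 0.130), with an adjusted p of 0.336 in edgeR and 0.0475 in DESeq2, and the exact permutation p was 0.0286. Over every setting and library left out it lay between −0.60 and −0.44. Ttc19, on the other strand, covers the 3′ end of Ncor1, and the use of strand in the counting is not given in the sources used here. Ttc19 held 380 counts over the 7 libraries, against 402 to 2290 counts of Ncor1 in each single library.

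Sin3b, a scaffold of the SIN3 complex, had 73.7, 119 and 80.6 CPM in CTR and 93.4, 149, 96.3 and 126 CPM in VPA. Replicate 2 was the highest of its group in both, the groups overlapped, and the log2 fold change was 0.35 (95% interval −0.23 to 0.93; edgeR adjusted p = 0.833). It was 0.21 without CTR replicate 1 or without VPA replicate 2, and 0.58 without CTR replicate 2. Its paralog Sin3a had a log2 fold change of 0.082. Suds3 and Sap18, smaller SIN3 subunits, had −0.25 and 0.11, and Sap18 shares 731 stretches of 50 bases with Sap18b, so that its reads could be divided between the pair. Rcor1 and Kdm1a, the scaffold and the histone demethylase of CoREST, had 0.21 and −0.16, and Tbl1xr1, a subunit of NCoR, had 0.10. All of these had overlapping groups. Sap30 had no count in 4 libraries and was not tested.

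To show what lies at the starts of the members without overlap that had the smallest p, the 250 bases before the start were read from RefSeq (GRCm38.p6) for Crebbp and for both entries of Ncor1. Capitals mark the matches to the motifs searched on both strands, which were the GC box GGGCGG, the CCAAT box CCAAT, the E-box CACGTG, the ETS site CCGGAAG, the NRF1 core CGCATGCG, the CRE TGACGTCA and the TATA box TATAAA. All 3 stretches lie inside the bounds of their gene in GENCODE and are written 5′ to 3′ along the − strand.
Crebbp, chr16:4213405-4213654: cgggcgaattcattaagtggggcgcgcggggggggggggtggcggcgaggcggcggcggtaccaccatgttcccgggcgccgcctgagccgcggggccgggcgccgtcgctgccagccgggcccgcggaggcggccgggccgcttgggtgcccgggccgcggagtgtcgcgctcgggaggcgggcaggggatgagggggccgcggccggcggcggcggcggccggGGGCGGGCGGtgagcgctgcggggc
Ncor1, chr11:62457333-62457582: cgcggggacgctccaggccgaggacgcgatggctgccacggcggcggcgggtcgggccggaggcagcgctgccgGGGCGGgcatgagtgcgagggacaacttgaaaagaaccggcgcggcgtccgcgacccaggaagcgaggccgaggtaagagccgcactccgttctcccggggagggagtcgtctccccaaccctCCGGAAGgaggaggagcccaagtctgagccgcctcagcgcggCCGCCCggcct
Ncor1, chr11:62438516-62438765: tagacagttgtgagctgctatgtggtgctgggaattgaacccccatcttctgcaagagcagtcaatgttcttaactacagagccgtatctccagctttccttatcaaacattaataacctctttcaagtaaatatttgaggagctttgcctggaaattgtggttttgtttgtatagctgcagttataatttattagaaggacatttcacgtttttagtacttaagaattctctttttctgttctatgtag
The Crebbp stretch holds 44 CpG and 2 overlapping GC boxes. The outer Ncor1 stretch holds 34 CpG, 2 GC boxes, one of them on the other strand, and 1 ETS site, while the inner one holds 2 CpG and none of the motifs. Libraries of 3′ ends do not tell which start was used, or whether both Ncor1 entries mark a start at all.

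RefSeq starts were found for 42 of the 49 members, with 59 promoters in all. Those not matched were Chd3, Hdac1, Hdac3, Hdac10, Kat6a, Mbd2 and Mta3. The members' promoters had a median of 18 CpG, beside 16 for the promoters of genes tested and 6 for all 32851 promoters. A GC box stood in 67.8% of the members' promoters, in 58.3% of those of genes tested and in 32.7% of all. A CCAAT box stood in 40.7%, 34.6% and 33.8%, an ETS site in 13.6%, 14.0% and 6.91%, and the NRF1 core in 6.78%, 3.30% and 1.55%. The E-box was in 5.08%, 8.59% and 6.02%, the TATA box in 6.78%, 6.72% and 12.4%, and the CRE in 0 of 59, 2.67% and 1.55%. A match is a description of the letters only.

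All 11 NuRD subunits were tested, 3 of them higher and 8 lower, with a median of −0.22. NuRD joins a CHD remodelling ATPase to HDAC1 or HDAC2. Chd3 (ENSMUSG00000018474, chromosome 11, 69343273 to 69369406, − strand), one of these ATPases, had 185, 113 and 175 CPM in CTR and 109, 60.9, 88.3 and 103 CPM in VPA. The groups came close, with CTR replicate 2 just above VPA replicate 1, but did not overlap. Its log2 fold change was −0.81 (standard error 0.259), and it was not past the threshold in edgeR (adjusted p = 0.466) or DESeq2 (adjusted p = 0.295). The exact permutation p, unadjusted and at its floor, was 0.0286.

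Chd4, the main NuRD ATPase of most tissues, was the member with the highest level. It had 840, 579 and 815 CPM in CTR and 451, 422, 682 and 693 CPM in VPA. CTR replicate 2 lay inside the VPA range, and the log2 fold change was −0.41 (95% interval −0.97 to 0.15; edgeR adjusted p = 0.751). The ratio of Chd3 to Chd4 counts was 0.196 to 0.221 in the CTR libraries and 0.130 to 0.242 in the VPA libraries. VPA replicate 1 alone was above the CTR range of this ratio and the other VPA libraries were below it.

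Mbd3, the subunit that takes the place of the methyl-CpG reader MBD2 in part of the NuRD complexes, had 64.6, 52.0 and 70.2 CPM in CTR. Its VPA libraries had 25.5, 27.1 and 45.0 CPM in replicates 1 to 3 and no count in replicate 4. All VPA values lay below the CTR values, also among the libraries with counts, yet the fitted log2 fold change of −1.35 had an interval of −3.48 to 0.78 (edgeR adjusted p = 0.820), and the exact permutation p was 0.114. Mbd2 had 19.9 to 21.9 CPM in CTR and 15.1 to 44.3 CPM in VPA, with a log2 fold change of 0.25 in overlapping groups.

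Rbbp4 and Rbbp7 are histone-binding chaperones shared by NuRD and SIN3. Rbbp7 had 72.5, 76.1 and 85.0 CPM in CTR and 99.2, 80.6, 99.6 and 80.8 CPM in VPA, a log2 fold change of 0.21 (95% interval −0.17 to 0.59). Rbbp4 had a log2 fold change of −0.20, and both pairs of groups overlapped. The scaffolds Gatad2a and Gatad2b had −0.22 and −0.26, Mta1 and Mta2 had 0.13 and −0.043, and Mta3, with no count in 3 libraries, had −1.19.

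**Figure D2:**
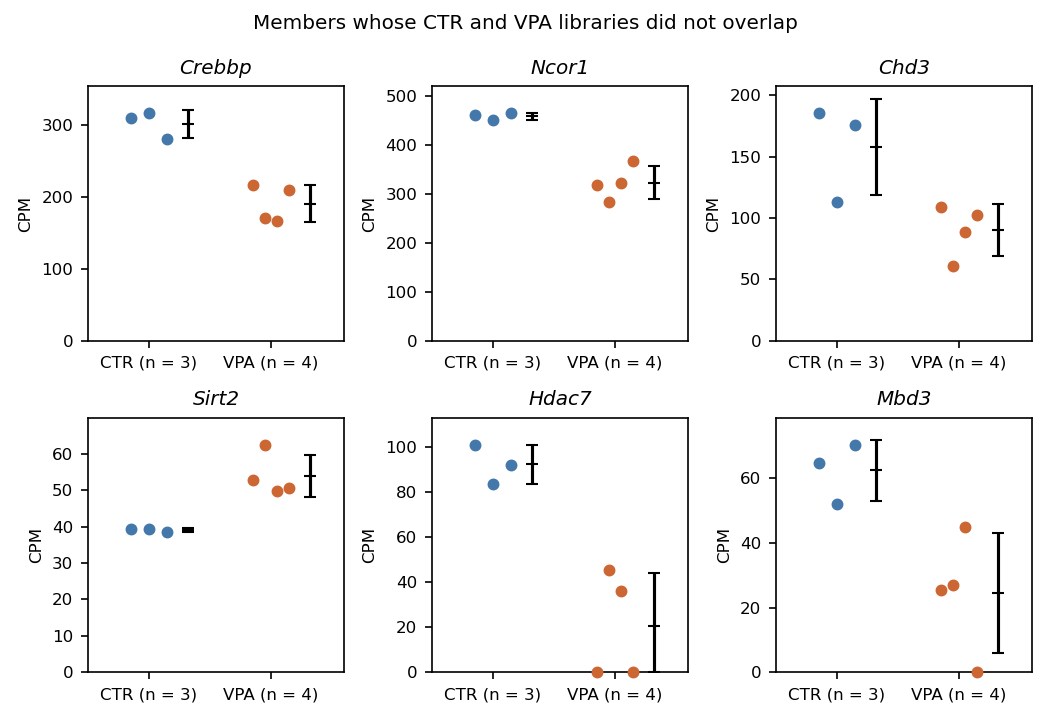
CPM of the 6 members whose CTR and VPA libraries did not overlap, with 1 point per library and a bar for the mean and SD to the right (the lower end is not drawn below 0). Crebbp, Ncor1 and Chd3 have counts in every library, while Hdac7 and Mbd3 have VPA libraries at 0, and Sirt2 is the member with every VPA library above.

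The class I HDACs, the enzymes VPA inhibits most strongly, had no member past the adjusted or the unadjusted threshold, with 0 higher and 3 lower among the 3 tested and a median log2 fold change of −0.087. Hdac1 had 31.9, 26.2 and 35.6 CPM in CTR and 33.3, 28.9, 28.1 and 27.2 CPM in VPA. All VPA values lay within the CTR range. Its log2 fold change was −0.087 with a 95% interval of −0.65 to 0.48, which is a fold between 0.636 and 1.39 (edgeR adjusted p = 0.968), and with a library left out it lay between −0.21 and −0.0088. Hdac1 shares 1121 stretches of 50 bases with the pseudogene Gm10093, which held 90 counts in all, so that reads could be divided between them.

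Hdac3 had 13.8, 11.4 and 16.4 CPM in CTR and 14.4, 9.84, 16.1 and 13.6 CPM in VPA. The groups covered nearly the same range, and the log2 fold change of −0.046 (95% interval −1.03 to 0.94) took the other sign without CTR replicate 3 or without VPA replicate 2. Hdac2, the class I member with the highest level, had 97.3, 67.8 and 88.3 CPM in CTR and 50.7, 92.3 and 78.5 CPM in VPA replicates 2 to 4. It had no count in VPA replicate 1. The groups overlapped, and the log2 fold change was −0.61 with an interval of −2.91 to 1.68. It was −0.20 without VPA replicate 1, the library at 0, and −0.97 without VPA replicate 3. Other settings gave −1.95 with limma-voom and −1.45 with a block by replicate number. Within a library the ratio of Hdac1 to Hdac2 counts was 0.329 to 0.406 in the CTR libraries and 0.307 to 0.571 in the 3 VPA libraries with counts of both. Hdac8, a class I enzyme that works without a complex, had 11, 12 and 11 counts in the CTR libraries and 22, 11, 4 and 2 counts in the VPA libraries, and was not tested.

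Among the class IIa enzymes, which bind MEF2 transcription factors, 2 were higher and 1 was lower of the 3 tested. Hdac7, known from endothelium and thymocytes, had 101, 83.6 and 92.1 CPM in CTR. Its VPA libraries had 45.5 and 36.1 CPM in replicates 2 and 3 and no count in replicates 1 and 4. All VPA values lay below the CTR values, also where counts were present, and the fitted log2 fold change was −2.14 with an interval from −5.00 to 0.73 (edgeR adjusted p = 0.744). The exact permutation p was 0.114, and the log2 fold change was −2.96 without VPA replicate 2, −1.73 without VPA replicate 1 and −3.58 with limma-voom. Slc48a1 covers the 3′ end of Hdac7 on the other strand and held 382 to 2066 counts per library, so that its reads and those of Hdac7 cannot be told apart if strand was not used. The summed level of 8 sinusoidal endothelial markers was 257 to 286 CPM in CTR and 69.2 to 259 CPM in VPA (exact permutation test, two-sided p = 0.0857). Of these markers 7 were tested, 2 higher and 5 lower, each had a count in some library, and their part in the Hdac7 values was not tested.

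Hdac5 had 21.7, 9.26 and 24.7 CPM in CTR and 41.1, 18.8, 16.1 and 25.7 CPM in VPA. The groups overlapped, and the log2 fold change was 0.46 (95% interval −0.68 to 1.6; edgeR adjusted p = 0.914). Leaving out CTR replicate 2 gave 0.12, and leaving out VPA replicate 1 gave 0.13. Hdac4 had a log2 fold change of 0.17. Hdac9 had 1 to 24 counts per library and was not tested.

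Hdac6, a cytoplasmic enzyme that deacetylates tubulin, had 22.1, 7.29 and 8.22 CPM in CTR and 16.3, 19.7, 0 and 7.55 CPM in VPA. It spread widely in both groups, and its log2 fold change of −0.18 changed sign without CTR replicate 1 or without VPA replicate 3. The value was −0.71 with a block by replicate number and −1.18 with the number in the library name as a block. Hdac11, the class IV enzyme, had no count in 4 libraries. Hdac10 had 20 counts in VPA replicate 4 and none elsewhere.

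The sirtuins held the one member that was higher in every VPA library. Sirt2 (ENSMUSG00000015149, chromosome 7, 28766735 to 28788661, + strand), mostly a cytoplasmic deacetylase, had 39.4, 39.2 and 38.4 CPM in CTR replicates 1 to 3 and 52.9, 62.4, 49.8 and 50.6 CPM in VPA replicates 1 to 4. The CTR libraries lay close together, with a coefficient of variation of 1.41%, and every VPA library lay above them. The CTR libraries held 100, 199 and 70 counts, and VPA replicate 3, the lowest, held 62 counts. Counting error at such counts is larger than that variation, so how far the groups stand apart is uncertain. The log2 fold change was 0.47 (standard error 0.184), which was not past the threshold (edgeR adjusted p = 0.571, DESeq2 adjusted p = 0.768), and the exact permutation p was 0.0286.

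Sirt3, the main mitochondrial deacetylase, had 6.30, 1.58 and 2.19 CPM in CTR and 9.79, 5.53, 12.8 and 9.82 CPM in VPA. It rested on 4 to 18 counts per library, CTR replicate 1 overlapped VPA replicate 2, and the log2 fold change was 1.49 (95% interval −0.37 to 3.34; edgeR adjusted p = 0.709). Without CTR replicate 1 it was 2.30. Ric8a covers the 3′ end of Sirt3 on the other strand with 46 to 222 counts per library. Sirt7, a nucleolar enzyme, was the sirtuin with the highest level.

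Its CPM was 72.9, 56.6 and 47.2 in the CTR libraries and 100.5, 35.4, 77.9 and 60.4 in the VPA libraries. The VPA libraries reached beyond the CTR range on both sides, and the log2 fold change was 0.21 (95% interval −0.61 to 1.04). With a library left out it lay between −0.035, without VPA replicate 1, and 0.44, without VPA replicate 2. Sirt1, the nuclear sirtuin best known from metabolism, had 10.96 to 40.4 CPM in CTR, 20.2 and 34.7 CPM in VPA replicates 1 and 4 and no count in VPA replicates 2 and 3. Sirt6 had no count in 1 CTR and 1 VPA library. Sirt4 had no count in any library, and Sirt5 had 6, 24 and 7 counts in the CTR libraries and 2, 0, 0 and 0 in the VPA libraries. Neither was tested.

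The BET readers bind acetylated histones and recruit the elongation machinery. Brd2 had 223, 501 and 182 CPM in CTR and 204, 224, 133 and 246 CPM in VPA. CTR replicate 2 stood far above the other CTR libraries, which lay inside the VPA range, and the log2 fold change was −0.59 (95% interval −1.46 to 0.30; edgeR adjusted p = 0.791). Without CTR replicate 2 the log2 fold change was −0.013. Brd3 had 149 to 177 CPM in CTR and 121 to 161 CPM in VPA, with a log2 fold change of −0.16.

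**Figure D3:**
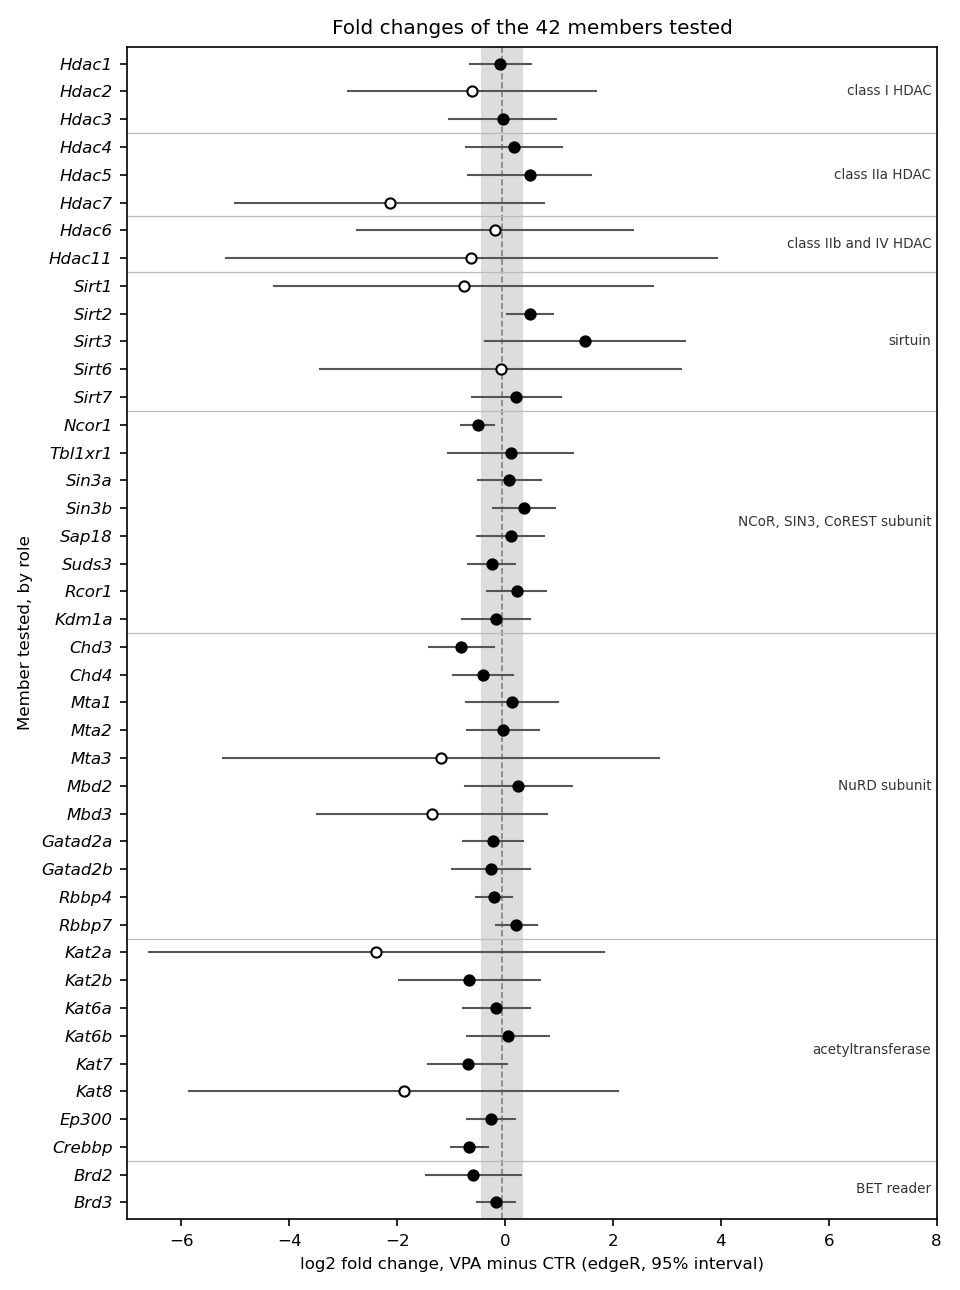
The edgeR log2 fold change (VPA minus CTR) of the 42 members tested with its 95% interval, by role. Filled points are the 32 members with a count in every library and open points the 10 with a library at 0, which have the widest intervals, and the grey band and dashed line are the quartiles and median of all genes tested (−0.42, −0.057 and 0.32).

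Several members had no count in 1 or more libraries although they were well counted in the others. Of the 42 tested, 32 had a count in every library and 10 did not, of which 6 were at 0 in VPA libraries only, 4 in both groups and 0 in CTR libraries only. The biological coefficient of variation that edgeR estimated had a median of 0.281 in the 32 and 1.42 in the 10. By a rule chosen after the values were seen, 4 of the 34 tested members with a median of at least 20 CPM over the 7 libraries had a library at 0. They were Hdac2, Hdac7, Mbd3 and Kat8, which is 11.8%, and the same held for 670 of 6309 genes, or 10.6%. Over all these genes the number at 0 was 30, 19 and 70 in CTR replicates 1 to 3 and 367, 110, 190 and 152 in VPA replicates 1 to 4. A well-counted gene at 0 was thus found more often in each VPA library than in any CTR library, in members as in other genes, and its cause was not tested. What a 0 of Hdac2, Hdac7, Mbd3 or Kat8 stands for cannot be told from these values.

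The marker lists and the mitochondrial share were read beside the members. The summed level of 8 proliferation markers was 149 to 162 CPM in CTR and 46.8 to 90.1 CPM in VPA (exact permutation test, two-sided p = 0.0286), with 2 higher and 4 lower among the 6 tested, 2 of the latter at an unadjusted edgeR p under 0.05, and each with a count in some library. The 10 stellate cell markers overlapped between the groups, at 1960 to 4240 CPM and 1510 to 2930 CPM (exact permutation test, p = 0.2), with 1 higher and 9 lower, 3 of the latter at an unadjusted edgeR p under 0.05. Mitochondrial genes, with overlapping groups too, took 14.5% to 27.7% of the counts in the CTR libraries and 23.9% to 32.5% in VPA (p = 0.143 by the exact permutation test). The part of these measures in the values of Crebbp, Ncor1, Chd3, Mbd3 and Sirt2 was not tested. The hepatocyte, macrophage, cholangiocyte and lymphocyte lists gave exact permutation p-values of 0.943, 0.6, 0.971 and 0.486, and the neutrophil list was at 0 in every library.

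The other subunits and cofactors of the same machinery were read from a list of 98 genes, of which 87 were tested. At an adjusted p under 0.05 in edgeR 0 passed, and at an unadjusted p under 0.05 there were 2 higher (2.3% of those tested against 3.65% of all genes) and 7 lower (8.05% against 4.62%), with 33 higher and 54 lower in all and a median log2 fold change of −0.19. Every VPA library lay above every CTR library in 1 partner gene (1.15% against 4.44% of all genes) and below in 13 (14.9% against 7.41%). Among the corepressor partners, 12 of the 24 tested were higher and 12 lower, with a median of −0.039. The acetyltransferase partners counted 16 higher and 30 lower of 46, with a median of −0.25, the acetyl-lysine readers 4 and 7 of 11, with −0.20, and the enzymes of acetyl-CoA and NAD supply 1 and 5 of 6, with −0.21.

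Bptf, the bromodomain subunit of the NURF remodeller, had 281, 285 and 288 CPM in CTR and 209, 207, 194 and 206 CPM in VPA. The groups did not overlap, with a log2 fold change of −0.48 (standard error 0.113, edgeR adjusted p = 0.295). Epc2, a subunit of the NuA4 acetyltransferase of TIP60, had 69.3, 65.4 and 63.6 CPM against 26.1, 13.2, 39.3 and 34.0 CPM, without overlap (log2 fold change −1.25, edgeR adjusted p = 0.398). Zzz3, a subunit of the ATAC acetyltransferase, had 101, 86.9 and 105 CPM against 62.7, 52.3, 52.2 and 78.5 CPM, again without overlap (log2 fold change −0.67, edgeR adjusted p = 0.426). Ing2, which ties SIN3 to methylated histone H3, was the partner with every VPA library above, at 33.9, 32.5 and 28.0 CPM against 44.4, 51.7, 37.7 and 48.3 CPM (log2 fold change 0.53, edgeR adjusted p = 0.575).

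**Figure D4:**
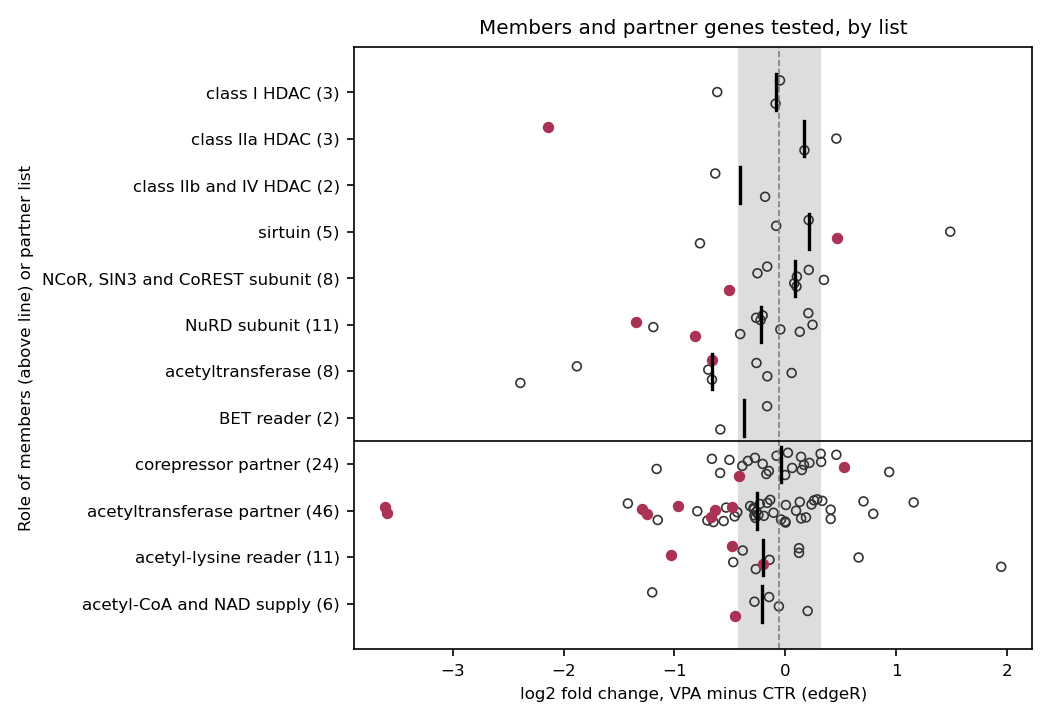
The edgeR log2 fold changes of the 42 members by role, above the line, and of the 87 partner genes by list, below it, with the number tested in brackets and a black bar at each median. Filled points are genes whose CTR and VPA libraries did not overlap, and the grey band and dashed line are the quartiles and median of all genes tested.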

How the data were processed

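RNA was measured in 7 libraries of mouse PCLS, 3 CTR and 4 VPA. The authors made QuantSeq 3′ libraries, mapped single-end reads to GRCm38 with STAR, ran StringTie and deposited whole numbers that they name raw counts, per Ensembl gene and without normalization, 1 column per library. Whether these were counted directly or estimated by StringTie is not given in the sources used here, so the meaning of an isolated 0 is uncertain. The program that counted the reads, whether it used strand and what it did with reads matching several places are not given in the sources used here. Groups, replicate numbers and the number in each library name came from the labels, and symbols from GENCODE.

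Counts were analysed in R 4.3.3 with edgeR 4.0.16 (TMM, filterByExpr, quasi-likelihood fit and test with robust estimation on condition alone, Benjamini-Hochberg over 10876 genes, threshold 0.05). Standard errors are the log2 fold change over the root of F. Single values were compared by an exact permutation test (two-sided) with all 35 divisions of 7 libraries into 3 and 4, on log2(CPM + 1) for genes and on the sums or shares for marker lists. The alternatives were DESeq2 1.42.0 (the tool the authors name), limma 3.58.1 (voom), other scalings and filters, a fit without robust estimation, blocks by replicate number or by that number, and leaving out each library. The code was tested on simulated data.

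The members and lists were chosen with earlier results of these data known. Values in every library are given for the class I HDACs, for members past the threshold or without overlap at 10 CPM or more, for the 5 with the smallest p in each direction and for the highest of each role. Those of Ep300, Kat8, Hdac10, Sirt1 and Sirt5 were added after they were seen. Among partner genes they are given for up to 3 in each direction without overlap. Gene overlaps and shared 50-base stretches came from GENCODE, promoters from RefSeq. The qPCR, protein and human slice experiments were not analysed here.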

Additional observations from a re-analysis of the deposited data

Results flagged for a closer look

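A library lay far from the other 3 of its group in 4 of 19 measures checked in the VPA libraries, which were 3 of 18 named members and the counts on genes. Chance flags about 1 in 20 where values are normally spread. Counts of 0 are not, and the members were named partly by their own values, so the share cannot be set against that rate. Hdac2 had a log2 CPM of −0.26 in VPA replicate 1, which is a count of 0, against 5.69 to 6.54 in the others. Mbd3 stood at −0.26 in VPA replicate 4, again a count of 0, against 4.72 to 5.52. Kat7 had 6.48 in VPA replicate 4, against 5.46 to 5.54 in the others. VPA replicate 2 held 3102450 counts on genes, against 1400887 to 1515954. No cause was tested for any of these.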

How the results depend on the processing

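Of 283 log2 fold changes of the 18 named members in the alternative fits, 275 kept their direction and their side of the threshold. Most of these fits called few genes of any kind, so staying under the threshold was likely from the start. DESeq2 moved Crebbp (−0.68) and Ncor1 (−0.52) past the threshold, so that it called 2 members against 0 in edgeR. The sign changed for Hdac3 without CTR replicate 3 (0.066) and without VPA replicate 2 (0.089), with −0.18 to 0.089 over all libraries left out, for Hdac6 without CTR replicate 1 (0.49) and without VPA replicate 3 (0.22), with −0.63 to 0.49, and for Sirt7 without VPA replicate 1 (−0.035), with −0.035 to 0.44. The number of members higher at an unadjusted p under 0.05 went from 1 to 0 with DESeq2 (all genes 1.86%), with no filter on low counts (1.54%) and with at least 10 counts in every library (7.79%), and lay between 0 and 1 with a library left out, being 0 without CTR replicate 1, 2 or 3 or VPA replicate 2 (all genes 1.79% to 3.32%). The number lower went from 3 to 6 with limma-voom (14.3%, all genes 10%) and to 5 without a filter (10.4%, all genes 4.88%), and lay between 2 and 6 with a library left out, being 6 without VPA replicate 4 (14.0%, all genes 6.22%). The number with every VPA library above was 1 to 2 with a library left out (2, or 4.76%, without CTR replicate 1, 2 or 3 or VPA replicate 2, against 6.05% to 8.74% of all genes), and the number below was 5 to 8 (8, or 19%, without CTR replicate 3 or VPA replicate 4, against 10.5% and 12% of all genes). The members' median log2 fold change of −0.17 was −0.069 (all genes 0.016) with at least 10 counts in every library, where 31 members were tested, −0.26 (all genes −0.16) without a filter and −0.27 (all genes −0.14) with a replicate block by replicate number, and lay between −0.23 and −0.11 with a library left out. The causes were not tested. The sources do not say what the number in a library name (71 to 74) stands for, and libraries of a number were not treated as pairs, because the deviations of same-numbered libraries correlated at 0.0256 to 0.107 by that number and at −0.0539 to 0.107 by replicate number; 3 pairs do not show that the number carries nothing. With a replicate block by replicate number, the numbers of members higher and lower by unadjusted p were 0 and 7 (all genes 3.42% and 5.63%), and with a replicate block by the number in the name 0 and 5, and Sirt7 took a log2 fold change of −0.087. VPA replicate 4 stood alone in its block in the first of these fits and VPA replicate 1 in the second. Neither library therefore bore on the fold changes of the fit in which it stood alone. Neither block fit called a member at an adjusted p under 0.05. Hdac8, Sirt3 and Kat5 rested on few counts, and the 10 members with a library at 0 had the widest intervals.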
